A study of Homo sapiens with 12 samples.

Results

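The Notch receptors, ligands and target genes described here are 10 genes: the receptors NOTCH1, NOTCH2 and NOTCH3, the ligands JAG1, JAG2 and DLL1, and the target genes HES1, HES4, HEY1 and NRARP. They were taken by symbol from a count table of 56609 gene symbols, and all 10 were in it. RNA was sequenced from A375, an established human melanoma cell line, in 4 groups of 3 libraries: wild-type cells with DMSO, wild-type cells with JQ1, and cells carrying a CRISPR/Cas9 knockout of MAPKAPK2 with DMSO or with JQ1. JQ1, a BET bromodomain inhibitor, was given at 500 nM, and all cells were treated for 48 h. MAPKAPK2 encodes MK2, a kinase activated by p38. The titles of the control libraries read untreated, but DMSO is given as their treatment and they are called DMSO here. The labels do not say whether the knockout cells are 1 clone or a pool, nor whether replicates are separate cultures, so p-values measure the spread between these libraries, which may be technical. The study asked how loss of MAPKAPK2 changes the response to BET inhibition, and the values below describe the Notch genes in that design.

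Notch receptors are single-pass membrane proteins that are activated by Jagged or Delta ligands on a neighbouring cell. Ligand binding lets ADAM proteases and then gamma-secretase cut the receptor, and the freed intracellular domain enters the nucleus, joins RBPJ and a Mastermind coactivator, and turns on genes such as the HES and HEY repressors. In the melanocyte lineage, Notch signalling and HES1 are known for keeping melanoblasts and melanocyte stem cells alive.

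RNA for 3 of the 8 testable Notch genes rose with JQ1 in both genotypes: the ligand JAG1 rose 3.31-fold in wild-type cells and 3.38-fold in knockout cells, the target HES1 rose 2.27-fold and 2.09-fold, and the receptor NOTCH2 rose 1.26-fold and 1.28-fold. These 3 genes are 37.5% of those tested, close to the 33.1% and 34.4% of all tested genes that were called with JQ1 in the 2 genotypes. HES1 was also higher in knockout than in wild-type cells, 1.36-fold in DMSO and 1.26-fold in JQ1; the DMSO call held in every alternative run, and the JQ1 call was lost in several, among them the fit without knockout JQ1 replicate 3 (adjusted p = 0.0671). No Notch gene was called for a JQ1 response that differed between the genotypes. DLL1 and NRARP had too few counts to be tested.

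The libraries held 25316565 to 34594025 counts each. CPM below are counts per 1000000 of a library scaled with TMM, means are given ± SD over the 3 libraries of a group, and a gene is called at an adjusted p under 0.05 by the quasi-likelihood test of edgeR, Benjamini-Hochberg adjusted over 21698 genes. MAPKAPK2 itself was lower in the knockout libraries, at 12.4 ± 1.15 against 89.6 ± 2.199 CPM in DMSO and 14.4 ± 1.61 against 117.1 ± 4.31 CPM in JQ1. The melanoma label was checked on lineage markers: SOX10 averaged 436.7 to 563.0 CPM and MITF 28.8 to 43.1 CPM, while the pigment genes TYR, DCT, TYRP1, MLANA and PMEL reached at most 1.45 CPM in any library. Fibroblast markers summed to 15.9 to 17.5 CPM in wild-type DMSO and 4.76 to 5.78 CPM in wild-type JQ1, and to 12.9 to 14.4 and 3.29 to 4.02 CPM in the knockout groups, with COL1A2 at 0 in 3 of the 4 groups. The highest of them in DMSO were PDGFRB, at 10.45 and 7.84 CPM in wild-type and knockout cells, and LUM, at 3.86 and 4.37 CPM. Their log2 changes with JQ1 were -1.41 and -1.83 for PDGFRB and -2.9 and -2.8 for LUM. Endothelial markers, which matter here because endothelium uses JAG1 and NOTCH1, summed to 10.3 to 12.7, 12.4 to 13.4, 4.26 to 5.55 and 6.45 to 8.61 CPM in wild-type DMSO, wild-type JQ1, knockout DMSO and knockout JQ1. Most of this sum was KDR, at 9.32, 11.5, 2.92 and 5.60 CPM in the same order; with JQ1 KDR rose in knockout cells (0.94 on the log2 scale, edgeR adjusted p = 6.92e-05) while VWF fell in both genotypes (log2 change -1.22, adjusted p = 0.0179, in wild-type and -1.81, adjusted p = 0.00498, in knockout cells), and CDH5 averaged at most 0.171 CPM in any group. The part of these markers in the results was not tested. The library knockout JQ1 replicate 3 stood apart from its group, with a chi-square per degree of freedom of 26.1 and 27.5 against its partners, compared with 3.35 to 7.64 in the other 10 replicate pairs. It was the highest of its group for 8 of the 9 Notch genes that had counts there, so results resting on it are given with and without it. In such bulk samples, fewer cells expressing a gene and less RNA per cell cannot be told apart.

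Read against the background of all genes, the calls were as follows. With JQ1 in wild-type cells 33.1% of all tested genes were called, 16.9% higher and 16.2% lower, and 3 of 8 Notch genes were called, all higher. In knockout cells JQ1 changed 34.4% of all tested genes, 16.7% higher and 17.8% lower, and the 3 called Notch genes were higher again. Knockout against wild type called 7.92% of genes in DMSO (3.47% higher, 4.44% lower) and 8.57% in JQ1 (3.01% higher, 5.56% lower), and 1 of 8 Notch genes each time, HES1, which was higher. A JQ1 response that differed between genotypes was called in edgeR for 0.134% of genes (0.0323% higher, 0.101% lower) and for 0 of 8 Notch genes. None of the 8 had an unadjusted p under 0.05 in that test, beside 1817 of all 21698 genes. With so few Notch genes this does not show equal responses. DESeq2 called 130 genes, against 29 in edgeR, and also 0 of 8 Notch genes. The median log2 change of the 8 genes was 0.30 with JQ1 in wild-type and 0.32 in knockout cells, against -0.03 and 0.00 over all genes. The knockout median rests partly on knockout JQ1 replicate 3. Without that library each of the 8 knockout changes was lower, among them NOTCH1 at 0.01, NOTCH3 at -0.02, JAG2 at 0.14 and HES4 at -2.08. These comparisons share libraries: each JQ1 comparison uses its genotype's DMSO libraries, which also enter the knockout comparison. Without knockout JQ1 replicate 3 the 4 counts of called Notch genes were 3, 4, 3 and 1. For the third, knockout against wild type in DMSO, calls over all 21698 genes also rose, from 1718 to 2665. The 1 Notch gene called in JQ1 was then NOTCH2, lower in the knockout, while HES1 was lost (edgeR adjusted p = 0.0671).

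**Figure D1:**
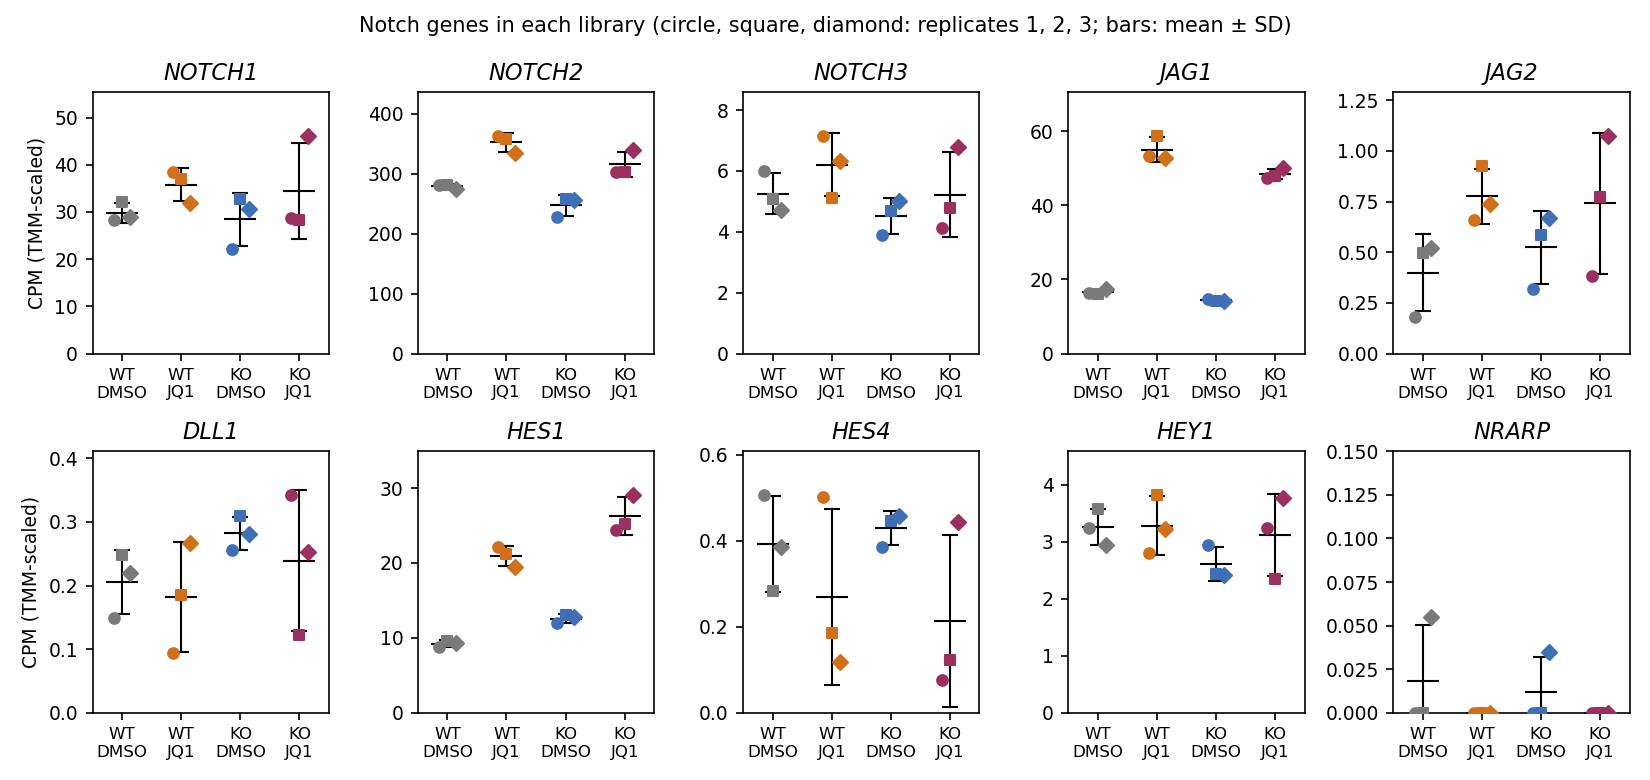
CPM of each of the 10 Notch genes (y axis, starting at 0 and scaled per gene) in the 12 libraries, by group (x axis), with WT for wild type and KO for the MAPKAPK2 knockout; bars show the mean ± SD of 3 libraries. JAG1 lies between 47.3 and 58.8 CPM in all 6 JQ1 libraries and between 14.15 and 17.3 CPM in all 6 DMSO libraries.

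Among the receptors, NOTCH2 (chromosome 1, 119911553 to 120069626, GRCh38) had the highest counts. It read 281.5, 281.3 and 274.8 CPM in wild-type cells with DMSO and 363.8, 358.5 and 334.9 with JQ1, and 227.5, 258.5 and 256.8 in knockout cells with DMSO and 303.6, 303.7 and 340.0 with JQ1. Every JQ1 library was above every DMSO library, of either genotype. The rise with JQ1 was 0.34 on the log2 scale (SE 0.06, edgeR adjusted p = 0.000771) in wild-type cells and 0.35 (SE 0.06, adjusted p = 0.00049) in knockout cells; without knockout JQ1 replicate 3 the latter was 0.29 (adjusted p = 0.000709). Knockout minus wild type was -0.17 in DMSO (edgeR adjusted p = 0.121) and -0.16 in JQ1 (adjusted p = 0.154). Both differences passed the threshold when knockout JQ1 replicate 3 was left out, at adjusted p = 0.0348 and 0.0232, and the DMSO difference does not contain that library except through the shared estimate of spread. The JQ1 responses of the genotypes differed by 0.02, with a 95% interval from -0.17 to 0.20.

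NOTCH2 shares near-identical sequence with partial copies that the table lists as NOTCH2NL, and counts can be split between them, so its level is uncertain. NOTCH2NL averaged 142.9 ± 3.36, 138.7 ± 4.05, 159.8 ± 3.23 and 148.4 ± 4.78 CPM in wild-type DMSO, wild-type JQ1, knockout DMSO and knockout JQ1. Its log2 change with JQ1 was -0.04 in wild-type cells (edgeR adjusted p = 0.548) and -0.11 in knockout cells (adjusted p = 0.114). The sum of NOTCH2 and NOTCH2NL went from 422.1 ± 5.05 to 491.1 ± 14.6 CPM with JQ1 in wild-type cells and from 407.4 ± 18.6 to 464.2 ± 21.9 CPM in knockout cells, with no overlap between the DMSO and JQ1 libraries of either genotype. Knockout minus wild type for NOTCH2NL was 0.16 in DMSO (edgeR adjusted p = 0.0619) and 0.10 in JQ1 (adjusted p = 0.287), opposite in sign to NOTCH2. The sums of the genotypes overlapped in both treatments, in DMSO at 386.4 to 421.9 CPM in knockout and 417.7 to 427.6 CPM in wild-type cells. The part of split counts in the genotype difference of NOTCH2 was not tested.

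NOTCH1 (chromosome 9, 136494433 to 136545786), the receptor best known from leukaemia and skin, was about an order of magnitude lower in counts. It read 28.3, 32.1 and 28.97 CPM in wild-type cells with DMSO and 38.5, 36.9 and 31.9 with JQ1, and 22.1, 32.7 and 30.6 in knockout cells with DMSO and 28.8, 28.4 and 46.2 with JQ1. The JQ1 and DMSO libraries overlapped in both genotypes, and knockout JQ1 replicate 3 was far above its partners. The log2 change with JQ1 was 0.27 in wild-type cells (SE 0.17, edgeR adjusted p = 0.261) and 0.28 in knockout cells (SE 0.17, adjusted p = 0.235), and without that library the latter was 0.01 (adjusted p = 0.969). An antisense gene, AL592301.1, overlaps NOTCH1 at a mean of 0.349 CPM, and whether counting used the strand is not given in the sources used here.

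NOTCH3 (chromosome 19, 15159038 to 15200981), a receptor best known from vascular smooth muscle, was the lowest of the receptors. Its values were 5.99, 5.06 and 4.70 CPM in wild-type cells with DMSO and 7.16, 5.12 and 6.33 with JQ1, and 3.88, 4.67 and 5.02 in knockout cells with DMSO and 4.11, 4.79 and 6.77 with JQ1. The JQ1 and DMSO libraries overlapped within each genotype, and the wild-type and knockout libraries within each treatment. The JQ1 changes of 0.24 (edgeR adjusted p = 0.334) and 0.22 (adjusted p = 0.41) on the log2 scale did not pass, and without knockout JQ1 replicate 3 the change in knockout cells was -0.02 (adjusted p = 0.941).

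The ligand JAG1 (chromosome 20, 10637684 to 10673999), a membrane protein that activates Notch receptors on adjacent cells, had far higher levels in the JQ1 libraries. Its libraries read 16.4, 16.0 and 17.3 CPM in wild-type cells with DMSO and 53.4, 58.8 and 52.8 with JQ1, and 14.6, 14.2 and 14.15 in knockout cells with DMSO and 47.3, 48.0 and 50.02 with JQ1. The JQ1 and DMSO libraries were separated by a wide gap, and within each treatment every knockout library lay below every wild-type library. The rise with JQ1 was 1.73 on the log2 scale (SE 0.07, edgeR adjusted p = 2.68e-10; 95% interval 3.00-fold to 3.65-fold) in wild-type cells and 1.76 (SE 0.07, adjusted p = 2.4e-10) in knockout cells. The 2 responses differed by 0.03, with a 95% interval from -0.17 to 0.23 (edgeR adjusted p = 0.965). Knockout minus wild type was -0.21 in DMSO (SE 0.07, edgeR adjusted p = 0.0803) and -0.18 in JQ1 (SE 0.06, adjusted p = 0.0976), so it did not pass; in DMSO it did when knockout JQ1 replicate 3 was left out (adjusted p = 0.044), and with library totals in place of TMM it did in both treatments (adjusted p = 0.0255 and 0.0406).

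JAG2 (chromosome 14, 105140981 to 105168824), the other Jagged ligand, was near the detection limit, with 6 to 34 counts per library. It averaged 0.399 ± 0.191 CPM in wild-type cells with DMSO and 0.776 ± 0.138 with JQ1, and 0.524 ± 0.181 in knockout cells with DMSO and 0.743 ± 0.349 with JQ1. The log2 change with JQ1 was 0.95 (SE 0.43, edgeR adjusted p = 0.105) in wild-type cells, where the groups did not overlap, and 0.53 (SE 0.42, adjusted p = 0.375) in knockout cells, where they did. Without knockout JQ1 replicate 3 the latter was 0.14 (edgeR adjusted p = 0.864). DLL1 (chromosome 6, 170282206 to 170306565), a Delta ligand, had 3 to 9 counts in every library and failed the low-count filter. FAM120B overlaps it on the opposite strand at 51.7 CPM, and whether its reads entered these few counts was not tested. A count of 3, the limit that a count of 0 allows, corresponds to 0.0825 to 0.122 CPM in these libraries; this limit and the counts cover counting error only.

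HES1 (chromosome 3, 194136145 to 194138732), a transcriptional repressor and the best known direct target of Notch, was the most abundant target. Its values were 8.79, 9.63 and 9.29 CPM in wild-type cells with DMSO and 22.1, 21.2 and 19.5 with JQ1, and 11.9, 13.0 and 12.7 in knockout cells with DMSO and 24.4, 25.2 and 29.1 with JQ1. No 2 of the 4 groups overlapped. It rose with JQ1 by 1.18 on the log2 scale in wild-type cells (SE 0.09, edgeR adjusted p = 1.94e-07; 95% interval 1.98-fold to 2.59-fold) and by 1.06 in knockout cells (SE 0.09, adjusted p = 3.73e-07), or 0.98 without knockout JQ1 replicate 3. The difference of the responses was -0.12, with a 95% interval from -0.38 to 0.15 (edgeR adjusted p = 0.857).

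HES1 was also the only Notch gene called between genotypes in the fit of all 12 libraries with TMM. In DMSO the knockout libraries were higher by 0.44 on the log2 scale (SE 0.09, edgeR adjusted p = 0.0064; 95% interval 1.19-fold to 1.56-fold), and the adjusted p stayed between 0.000376 and 0.0404 in the alternatives run. In JQ1 they were higher by 0.33 (SE 0.09, edgeR adjusted p = 0.0265), a call that was lost without knockout JQ1 replicate 3 (0.25, adjusted p = 0.0671), without wild-type JQ1 replicate 2 (0.34, adjusted p = 0.0749) and without wild-type JQ1 replicate 3 (0.28, adjusted p = 0.116). It was also lost with a fit of only the groups compared (adjusted p = 0.104) and with no low-count filter (adjusted p = 0.0518).

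Because HES1 and HES4 are classic RBPJ targets, the 250 bases before each gene's start (RefSeq, GRCh38.p14) were searched for TGGGAA, the core letters of the RBPJ site, on both strands. Among 35116 promoters of this length 20.8% held a match and 2.9% held at least 2; 8 of the 10 Notch genes matched the table by symbol, DLL1 and HEY1 being the exceptions. HES1 held 2 matches, HES4 held 1, and NOTCH1, NOTCH2, NOTCH3, JAG1, JAG2 and NRARP held 0. A match is a description of the letters, not a bound site. The promoters of HES1 and HES4 are printed because they carry the matches, and that of JAG1 because JAG1 rose with JQ1 in both genotypes and holds no match; they lie at chr3:194135898-194136147 (plus strand), chr1:1000098-1000347 (minus strand) and chr20:10674000-10674249 (minus strand), each reads 5′ to 3′ towards the gene, and capitals mark TGGGAA.
HES1: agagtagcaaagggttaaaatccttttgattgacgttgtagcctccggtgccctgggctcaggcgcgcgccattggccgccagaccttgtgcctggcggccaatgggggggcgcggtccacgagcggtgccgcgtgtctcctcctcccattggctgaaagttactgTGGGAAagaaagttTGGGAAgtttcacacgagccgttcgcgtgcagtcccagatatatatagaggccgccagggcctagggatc
HES4: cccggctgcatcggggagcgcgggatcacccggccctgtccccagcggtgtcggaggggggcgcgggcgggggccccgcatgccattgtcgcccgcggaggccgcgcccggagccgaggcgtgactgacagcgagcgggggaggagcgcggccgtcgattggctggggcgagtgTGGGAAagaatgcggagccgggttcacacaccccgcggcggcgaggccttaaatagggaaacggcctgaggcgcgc
JAG1: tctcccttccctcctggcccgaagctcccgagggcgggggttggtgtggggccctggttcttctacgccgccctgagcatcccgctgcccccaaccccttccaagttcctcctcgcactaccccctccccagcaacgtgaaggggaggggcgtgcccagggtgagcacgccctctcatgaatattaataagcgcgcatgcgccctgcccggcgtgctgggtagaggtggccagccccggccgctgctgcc
In HES1 the matches start 84 and 70 bases before the annotated start, both on the gene's own strand, and in HES4 the match starts 76 bases before it.

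HES4 (chromosome 1, 998962 to 1000172), a relative of HES1, did not show the HES1 pattern. It had 17, 8 and 14 counts in wild-type cells with DMSO and 16, 5 and 4 with JQ1, and 12, 13 and 13 in knockout cells with DMSO and 2, 3 and 14 with JQ1. The JQ1 groups scattered widely, and the last of these values came from knockout JQ1 replicate 3. The log2 change with JQ1 was -0.54 in wild-type cells (SE 0.56, edgeR adjusted p = 0.502) and -0.92 in knockout cells (SE 0.59, adjusted p = 0.259); without that library HES4 fell by 2.08 in knockout cells (adjusted p = 0.0266).

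HEY1 (chromosome 8, 79764010 to 79767863), a Notch-induced repressor prominent in heart and vessels, lay between 2.35 and 3.82 CPM in all 12 libraries, and all groups overlapped. It averaged 3.25 ± 0.318 CPM in wild-type DMSO and 3.28 ± 0.516 in wild-type JQ1, a log2 change of 0.01 (95% interval -0.37 to 0.39, edgeR adjusted p = 0.973). In knockout cells it averaged 2.60 ± 0.300 CPM in DMSO and 3.12 ± 0.714 in JQ1, a log2 change of 0.27 (edgeR adjusted p = 0.296), or 0.10 (adjusted p = 0.737) without knockout JQ1 replicate 3. NRARP (chromosome 9, 137300482 to 137302251), a feedback inhibitor of Notch, had 3 counts in all 12 libraries together, 2 in wild-type DMSO replicate 3 and 1 in knockout DMSO replicate 3, and was not detectable in the JQ1 libraries at this depth.

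**Figure D2:**
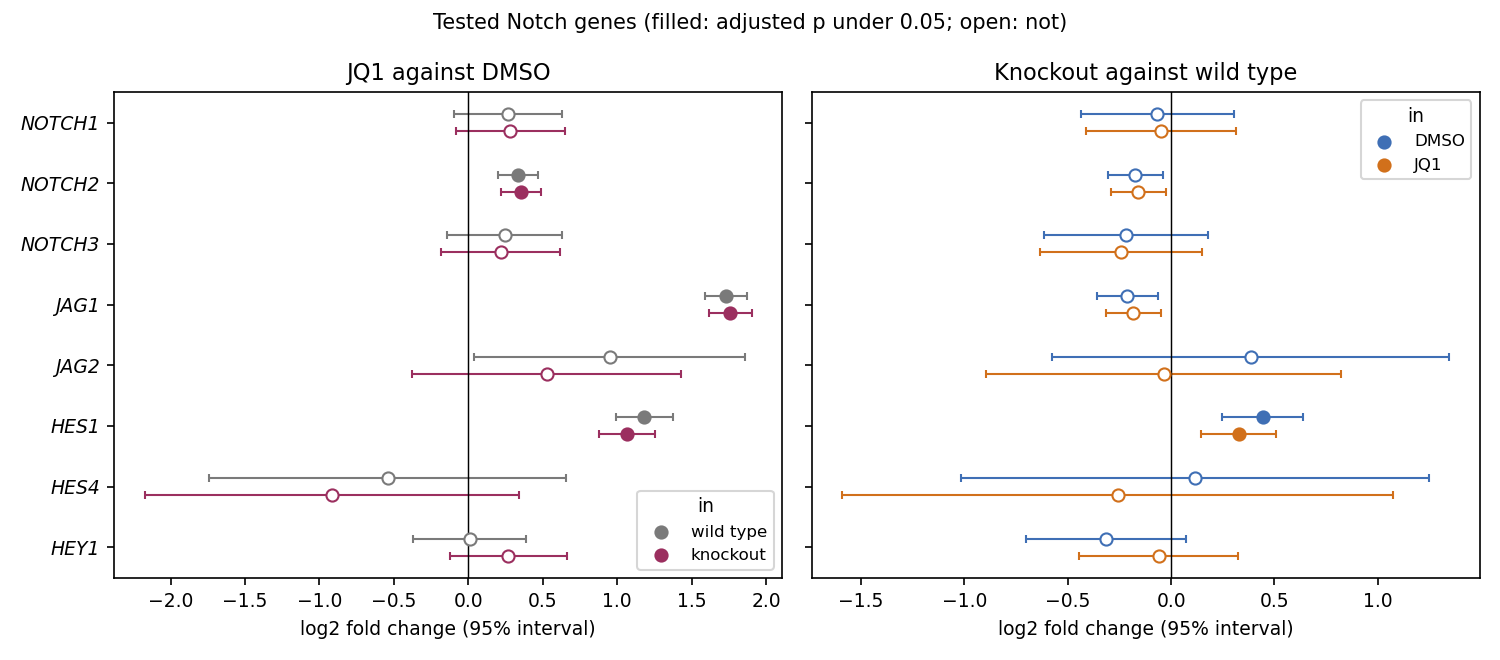
Log2 fold changes with 95% intervals (x axis) of the 8 tested Notch genes, JQ1 against DMSO on the left by genotype and knockout against wild type on the right by treatment; filled circles passed an adjusted p of 0.05. JAG1, HES1 and NOTCH2 are filled on the left, and HES1 alone on the right.

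Levels of different genes were compared as CPM per kilobase of the longest coding transcript in GENCODE 29, since longer transcripts collect more counts. In wild-type DMSO the order was NOTCH2 at 24.5, HES1 at 5.85, NOTCH1 at 3.20, JAG1 at 2.79, HEY1 at 1.42, NOTCH3 at 0.606, HES4 at 0.377, JAG2 at 0.0684, DLL1 at 0.0648 and NRARP at 0.0104 CPM per kilobase. Only JAG2 and DLL1 overlapped among neighbours in this order. With JQ1, JAG1 moved above NOTCH1, at 9.26 against 3.85 CPM per kilobase in wild-type cells and 8.16 against 3.70 in knockout cells, with no overlap. NOTCH1 and JAG1 overlapped in knockout DMSO, and so did JAG2 and DLL1. In both JQ1 groups HES4 and JAG2 overlapped, and JAG2 and DLL1 overlapped in knockout JQ1.

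**Figure D3:**
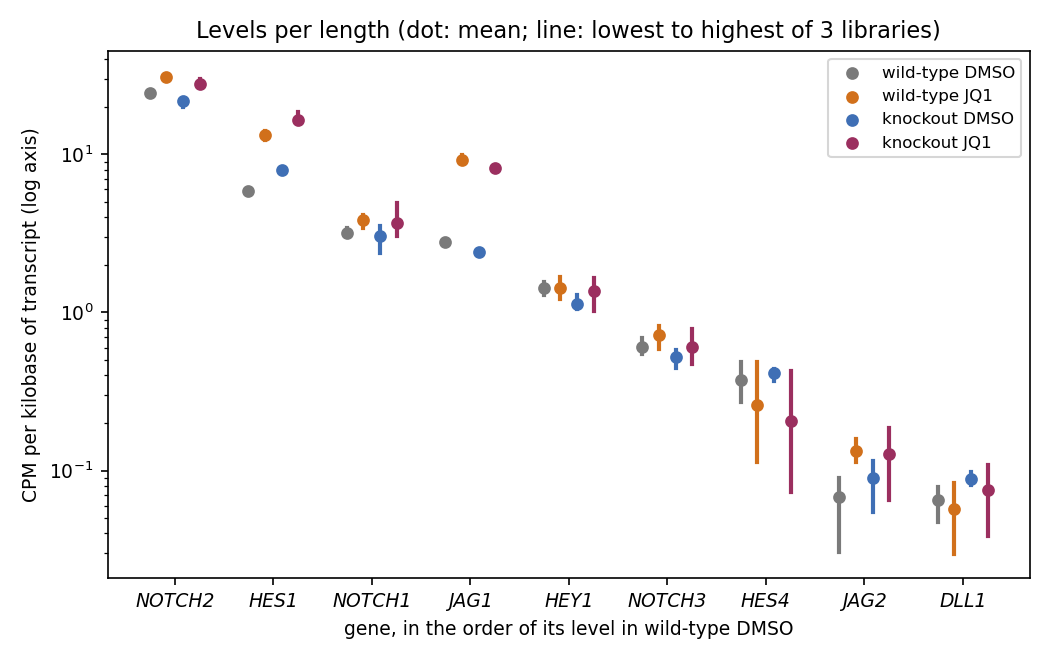
CPM per kilobase of transcript (log axis) of 9 Notch genes by group, ordered by their level in wild-type DMSO; dots are means and lines run from the lowest to the highest of 3 libraries. NOTCH2 is on top in every group, and JAG1 lies above NOTCH1 in both JQ1 groups; NRARP, with 3 counts in all, is not drawn.

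The other genes of the pathway comprised 56 listed genes, of which 51 were tested; NOTCH4, DLK1, MFAP5, HES5 and HEYL failed the filter. With JQ1 in wild-type cells 10 rose and 10 fell, which is 39.2% of those tested, with a median log2 change of -0.03; in knockout cells 10 rose and 14 fell, 47.1% of those tested, with a median of -0.05. The share called can be read beside the 33.1% and 34.4% of all tested genes. The parts of the pathway counted below hold 4 to 10 tested genes each, too few to read a direction from. Values are given for the 3 genes of smallest adjusted p in each comparison, and for others named after their values were seen.

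Among the other ligands, MFAP2, a microfibril protein that can bind Notch, fell by 1.37 on the log2 scale with JQ1 in wild-type cells (27.0 to 10.4 CPM, edgeR adjusted p = 3.96e-07) and by 2.67 in knockout cells (26.4 to 4.12 CPM, adjusted p = 1.25e-09). The difference of the responses, -1.30 (SE 0.17, edgeR adjusted p = 0.00838), was the only one called among the 51 genes. CNTN1, a cell adhesion protein also described as a Notch ligand, fell by 0.68 in wild-type cells (9.16 to 5.72 CPM, edgeR adjusted p = 0.000242) and by 1.26 in knockout cells (7.84 to 3.29 CPM, adjusted p = 1.38e-06), and its responses differed by -0.58 (adjusted p = 0.269). DLL4, the endothelial Delta ligand, was very low and went from 0.145 to 0.444 CPM in knockout cells (log2 change 1.60, edgeR adjusted p = 0.0442), with overlapping libraries, and from 0.173 to 0.391 CPM in wild-type cells (adjusted p = 0.132). Its call was lost when any of 8 of the 12 libraries was left out, with the highest adjusted p, 0.225, without knockout JQ1 replicate 3.

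Of 4 ligand endocytosis genes, 3 were called in each genotype, beside 33.1% and 34.4% of all tested genes. NEURL1B, a ubiquitin ligase that makes ligand-bearing cells competent to signal, fell by 1.43 in wild-type cells (2.22 to 0.817 CPM, edgeR adjusted p = 3.94e-05) and by 1.98 in knockout cells (adjusted p = 1.67e-05). MIB2, a ligase of the same function, went from 6.38 to 12.8 CPM in wild-type cells (log2 change 1.01, adjusted p = 0.0104) and from 5.61 to 9.43 CPM in knockout cells (0.75, adjusted p = 0.0523). The MIB2 call in wild-type cells was lost without wild-type JQ1 replicate 1 (0.70, edgeR adjusted p = 0.0721), and in knockout cells MIB2 passed without knockout DMSO replicate 2 (1.23, adjusted p = 0.00186). Of 9 cleavage genes, 3 rose in wild-type and 4 in knockout cells and none fell. These are 33.3% and 44.4%, beside the same shares of all tested genes. PSEN2, a catalytic subunit of gamma-secretase, rose by 0.58 (edgeR adjusted p = 4.5e-05) and 0.57 (adjusted p = 5.69e-05).

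In the nuclear complex none of 7 genes rose, while 2 fell in wild-type and 3 in knockout cells. These are 28.6% and 42.9%, beside 33.1% and 34.4% of all tested genes called. The coactivator MAML2 fell by 0.45 (edgeR adjusted p = 7.51e-05) and 0.68 (adjusted p = 1.62e-06), and MAML3 by 0.36 (adjusted p = 0.000681) and 0.38 (adjusted p = 0.000359). RBPJ, the DNA-binding partner of the cleaved receptor, averaged 280.0, 278.1, 293.3 and 265.8 CPM in wild-type DMSO, wild-type JQ1, knockout DMSO and knockout JQ1 and was called in no comparison. Of 7 corepressors, 2 fell in wild-type and 3 in knockout cells and none rose, again 28.6% and 42.9% called. NCOR1, a corepressor, was among the 3 genes of smallest adjusted p for a difference of the responses. That difference was -0.24 (edgeR adjusted p = 0.456) and did not pass. The next part can likewise be read beside the 33.1% and 34.4% of all tested genes called in wild-type and knockout cells. Of 10 turnover genes and antagonists, 1 rose and 3 fell in wild-type cells and 2 rose and 3 fell in knockout cells. Among them DTX3L, a ubiquitin ligase, fell by 0.59 (57.0 to 37.8 CPM, edgeR adjusted p = 5.44e-06) and 0.66 (70.3 to 44.4 CPM, adjusted p = 1.47e-06), and DTX1, a Deltex ligase, by 0.77 (adjusted p = 0.000698) and 1.08 (adjusted p = 8.86e-05).

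In the wider HES and HEY family 4 genes were tested. HES6, an antagonist of HES1, rose with JQ1 by 0.49 in wild-type cells (8.07 to 11.4 CPM, edgeR adjusted p = 0.0147) and by 0.72 in knockout cells (7.21 to 11.9 CPM, adjusted p = 0.00116). HES7, the clock gene of somite formation, rose in wild-type cells by 0.81 (1.89 to 3.32 CPM, adjusted p = 0.00734), and HEY2 by 0.63 (2.06 to 3.20 CPM, adjusted p = 0.00994). In knockout cells HES2 fell by 1.12 (1.47 to 0.664 CPM, adjusted p = 0.00925). The responses of HES7 and HEY2 differed between genotypes by -0.81 (edgeR adjusted p = 0.467) and -0.58 (adjusted p = 0.512), which did not pass. The wild-type call of HEY2 was lost when replicate 1 of wild-type DMSO (adjusted p = 0.0511) or of wild-type JQ1 (0.0508) was left out. That of HES6 was lost when the same libraries were left out (adjusted p = 0.0715 and 0.077) and without replicate 2 of wild-type JQ1 (0.0512).

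**Figure D4:**
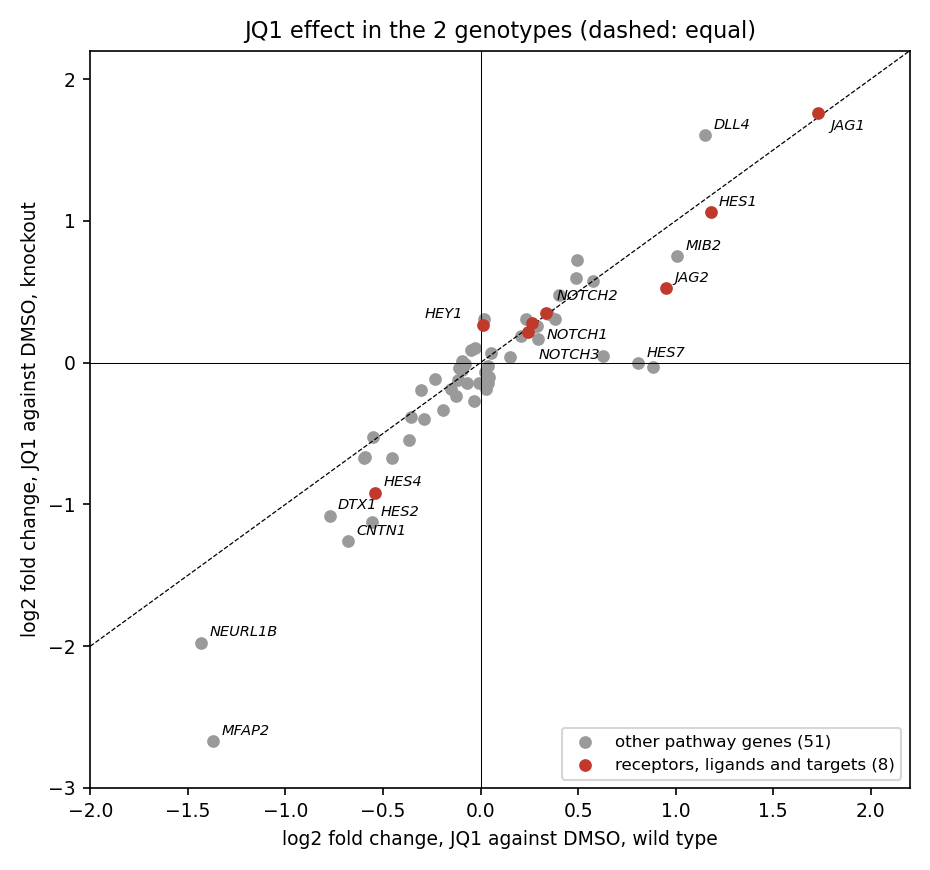
Log2 fold change with JQ1 in wild-type cells (x axis) and in knockout cells (y axis) for the 8 tested Notch genes and 51 other pathway genes; the dashed line marks equal responses. JAG1, HES1 and NOTCH2 lie near the line, and MFAP2 lies below it at -1.37 and -2.67.

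Between genotypes, 5 of the 51 pathway genes (9.8%) were called in DMSO, 2 higher and 3 lower in the knockout, and 7 (13.7%) in JQ1, 1 higher and 6 lower, beside 7.92% and 8.57% of all tested genes. HEY2, a relative of HEY1, was higher in knockout DMSO, at 4.28 against 2.06 CPM (log2 change 1.05, edgeR adjusted p = 0.000926). NEURL1B was lower by a log2 change of -0.93 in DMSO (adjusted p = 0.0044) and by a log2 change of -1.48 in JQ1 (adjusted p = 0.00153). PSEN2 was at 13.0 against 17.4 CPM in DMSO (log2 change -0.41, edgeR adjusted p = 0.00397), and its log2 change in JQ1 was -0.42 (adjusted p = 0.00299). It lies on chromosome 1, which also carries MAPKAPK2, NOTCH2 and HES4. Any part of position was not tested. In JQ1, MFAP2 was lower in the knockout by a log2 change of -1.33 (edgeR adjusted p = 9.44e-06) and CNTN1 by -0.80 (adjusted p = 0.000558).

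The genes whose pattern was most like that of the leading receptor, ligand and target were found by Pearson's r of log2 CPM over the 12 libraries among 15409 genes. The libraries fall into 4 groups and share the JQ1 contrast, so r mostly follows the group levels and is given as a description with no test. NOTCH2 was most like COL7A1 (r = 0.986), CHST1 (0.985) and ADGRG1 (0.984). JAG1 was most like FAM120C, OSBPL10 and PDE4DIP (r = 0.997 each), and HES1 most like TNC (0.995), PDIA4 (0.993) and COG4 (0.993). TNC, an extracellular matrix glycoprotein, averaged 1183, 2977, 1519 and 3639 CPM in wild-type DMSO, wild-type JQ1, knockout DMSO and knockout JQ1, the same order of groups as HES1. Among the Notch genes, JAG1 had r = 0.895 with both NOTCH2 and HES1, and NOTCH2 had r = 0.699 with HES1. In likeness to JAG1, NOTCH2 ranked 1249 and HES1 1244 among the 15409 genes. In likeness to NOTCH2, HES1 ranked 2671.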

How the data were processed

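RNA was sequenced from 12 libraries of A375 cells with a directional kit after depletion of ribosomal RNA, per the labels' protocols. The authors deposited estimated counts per gene symbol; the submitters' processing notes name Trim Galore, cutadapt, FastQC, MultiQC, kallisto, DESeq2 and the build GRCh38.p10, and the annotation is not given in the sources used here. The authors' other deposited table, a normalized signal (rounded counts divided by a factor per gene and library), served only as offsets in an alternative. Here estimated counts were rounded to whole numbers, where raw counts had been planned for. Columns were matched to samples by name. Genes with low counts were removed with filterByExpr, which kept 21698 genes and 99.8% to 99.9% of each library's counts, and edgeR 4.0.16 (limma 3.58.1, R 4.3.3) fitted 1 term per group over all 12 libraries with TMM scaling and quasi-likelihood tests. Fold changes used a prior count of 0.125, and the standard error was the absolute log2 change divided by the square root of F. There were 5 comparisons: JQ1 in each genotype, knockout in each treatment, and their interaction. Alternatives were no filter, a filter of at least 1 CPM in 3 libraries, library totals, the authors' factors, DESeq2 1.42.0, only the groups compared, a replicate block, a threshold of 0.01 and leaving out each library. The fits were tested on simulated counts with known changes in a small set of genes in wild-type JQ1. That simulation had no library standing apart and far fewer changed genes than were called with JQ1. It therefore does not test the scaling under such changes. Gene positions come from GENCODE 29 and promoters from RefSeq. All 10 Notch genes are described; of the other pathway genes, values are given for the 3 of smallest adjusted p in each comparison, and others were named after their values were seen. The members and lists were chosen with earlier results of these data known.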

Additional observations from a re-analysis of the deposited data

Results flagged for a closer look

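The JQ1 response of MFAP2 differed between the genotypes: the log2 change with JQ1 in knockout cells minus that in wild-type cells was -1.30 (SE 0.17, edgeR adjusted p = 0.00838). The difference itself was tested, as the interaction of knockout and JQ1, and kept its direction in every alternative run, at -1.41 to -1.21 when each library was left out in turn. MFAP2 averaged 27.0 CPM in wild-type cells with DMSO and 10.4 with JQ1, and 26.4 in knockout cells with DMSO and 4.12 with JQ1. None of the 8 tested Notch receptors, ligands and targets met this criterion.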

How the results depend on the processing

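JAG1, HES1 and NOTCH2 passed the threshold with JQ1 in both genotypes in every alternative run, the largest adjusted p being 0.0146, for NOTCH2 in wild-type cells. HES1 in knockout against wild type with DMSO held likewise. The size of the NOTCH2 change with JQ1 depended on the scaling. With library totals its log2 change was 0.21 in wild-type and 0.23 in knockout cells, against 0.34 and 0.35 with TMM. The 1 called Notch gene of knockout against wild type in DMSO became 3 with library totals and ran from 1 to 3 when each library was left out; in JQ1 it became 2 with library totals, 0 with no filter, 0 with only the groups compared and 0 at a threshold of 0.01, and ran from 0 to 1. Library totals moved the median of all genes by -0.13 and -0.12 in the JQ1 comparisons. NOTCH1 passed with JQ1 when no filter was used (adjusted p = 0.0389 in wild-type and 0.0412 in knockout cells) and in wild-type cells with only the groups compared (0.0117). HES2 lost its call in knockout cells with the authors' factors (adjusted p = 0.122). The cause was not tested.

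Every value that changed sign missed the threshold both as reported and under the alternative concerned. The JQ1 change of HEY1 in wild-type cells was -0.0051 with the stricter filter, -0.12 with library totals and -8.8e-05 with the authors' factors, and ran from -0.11 to 0.11 when libraries were left out. Without the filter the difference of JQ1 responses was -0.0012 for NOTCH1 and -0.0023 for NOTCH2. Leaving out libraries gave -0.023 to 0.36 for NOTCH3 with JQ1 in knockout cells. For knockout against wild type in DMSO it gave -0.053 to 0.34 for HES4 and -0.18 to 0.10 for NOTCH1. In JQ1 it gave -0.32 to 0.072 for NOTCH1, -1.42 to 0.58 for HES4, -0.43 to 0.27 for JAG2 and -0.22 to 0.10 for HEY1. For the difference of responses it gave -0.26 to 0.14 for NOTCH1, -0.045 to 0.048 for NOTCH2, -0.27 to 0.12 for NOTCH3, -0.0025 to 0.080 for JAG1 and -1.53 to 0.46 for HES4.

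Over all genes, the 7187 calls with JQ1 in wild-type cells became 4781 at a threshold of 0.01, and the 20 pathway calls became 13. The 1718 of knockout against wild type in DMSO became 926 at that threshold, 1114 and 1099 without replicate 1 or 2 of wild-type DMSO, 1109 without knockout DMSO replicate 3, and 2665 without knockout JQ1 replicate 3. The 1860 in JQ1 became 918 with only the groups compared, 1232 without wild-type JQ1 replicate 2 and 965 at the threshold of 0.01. The 29 of the interaction became 236 with no filter, 130 with DESeq2, 6 at the threshold of 0.01 and 8 to 92 with libraries left out, 92 being without knockout JQ1 replicate 3.

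Replicate numbers did not pair the libraries: deviations of 18 same-numbered pairs correlated at -0.115 to 0.0786, none over 0.1. With the replicate number as a block 4, 3, 1, 1 and 0 Notch genes were called in the 5 comparisons, the addition being JAG2 with JQ1 in wild-type cells (1.02, adjusted p = 0.0287). Without the filter DLL1 and NRARP could be tested and were not called, with adjusted p from 0.507 to 1.0. Depth limits DLL1, NRARP, HES4 and JAG2, which had at most 34 counts in any library.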
